A study of Oikopleura dioica with 14 samples.

Results

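In wild-type embryos of the tunicate Oikopleura dioica, 150 genes had few or no counts at 4 and 6 hours post fertilization (hpf) and were abundant at 8 hpf. These genes were read out in Pax37b mutant (Pax37b-/-) embryos, Pax37b being a transcription factor gene of the Pax3/7 type. They were chosen from wild-type values alone, as identifiers at 10 CPM or more (a gene's count divided by the library's total and multiplied by 1000000) in both wild-type 8 hpf libraries and under 5 CPM in all 4 wild-type libraries of 4 and 6 hpf. Of 17212 identifiers, 199 met this rule after 1 more was left out because its number lies in a stretch of consecutive identifiers that the rule excludes. The 150 with the highest value in their lower wild-type 8 hpf library were kept.

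The study compared pools of whole Pax37b-/- animals with pools of whole Pax37b+/+ animals at 4, 6 and 8 hpf, to find genes regulated by Pax37b. All animals came from crosses of Pax37b+/- parents, were genotyped singly and were pooled by genotype before polyadenylated RNA was extracted and sequenced from low-input libraries. The labels describe the mutation no further and give neither the number of animals in a pool nor the cross behind each library. Wild type had 2 libraries at each stage, and the mutants had 2 at the first stage and 3 at each later one. One wild-type 8 hpf column carries a number that matches no titled sample and is called the unnumbered library here.

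Oikopleura dioica develops within hours into a swimming larva with a trunk and a tail. Cells of its trunk epithelium, grouped into fixed territories such as the Fol territory, later secrete the gelatinous house in which the animal lives and filters food. Pax3/7 factors act in the ectoderm and nervous system of many animals. Many Oikopleura genes lie close together and are transcribed as operons. The files pair the identifiers with no gene names, and 0 of the 17212 matched the reference gene table, so no member could be given a function and no sequence is shown. For the same reason the level of Pax37b itself could not be used to check the genotype labels.

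Total counts ran from 2803712 to 3941906 per library at 4 hpf and from 10350791 to 15682947 at 6 and 8 hpf. A level of 5 CPM therefore corresponded to 14.02 to 19.7 counts at 4 hpf and to 51.8 counts or more later. Libraries of one genotype and stage differed widely, with 766 to 2377 identifiers at 10 CPM or more in the mutant 8 hpf libraries against 4241 and 2626 in wild type. Mutant replicate 3 at 8 hpf was the sparsest, and results are also given without it. In pooled whole animals, fewer cells of a type and less RNA per cell cannot be told apart.

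The wild-type values that chose the members are a description and are not tested. Member levels at 8 hpf ran from 31.5 to 3234 CPM in wild-type replicate 1 (median 212 CPM) and from 33.0 to 7236 CPM in the unnumbered library (median 335 CPM). The libraries differed by a median factor of 2.23 per member, 64 members lay within 2-fold and 10 lay more than 10-fold apart. Before that stage 108 members stayed under 1 CPM in every wild-type library, and 90 had no count in either wild-type 4 hpf library. Together the members took 5.26% and 7.88% of the wild-type counts at 8 hpf, against 0.00306% and 0.00446% of those of 4 hpf and 0.00899% and 0.00652% of those of 6 hpf.

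Values on both sides of each threshold show how the list ends. GSOIDG00010986001, the last member kept, had 31.5 and 213 CPM in the wild-type 8 hpf libraries, and GSOIDG00008028001, the first left out, had 31.4 and 665 CPM. GSOIDG00007002001 was the lowest identifier that met the rule, at 10.3 and 51.4 CPM, and GSOIDG00016030001 just missed it at 9.61 and 1131 CPM. On the early side GSOIDG00005057001 reached 4.92 CPM in a wild-type 6 hpf library and was kept. GSOIDG00001478001 reached 5.35 CPM in a wild-type 4 hpf library and was left out.

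**Figure D1:**
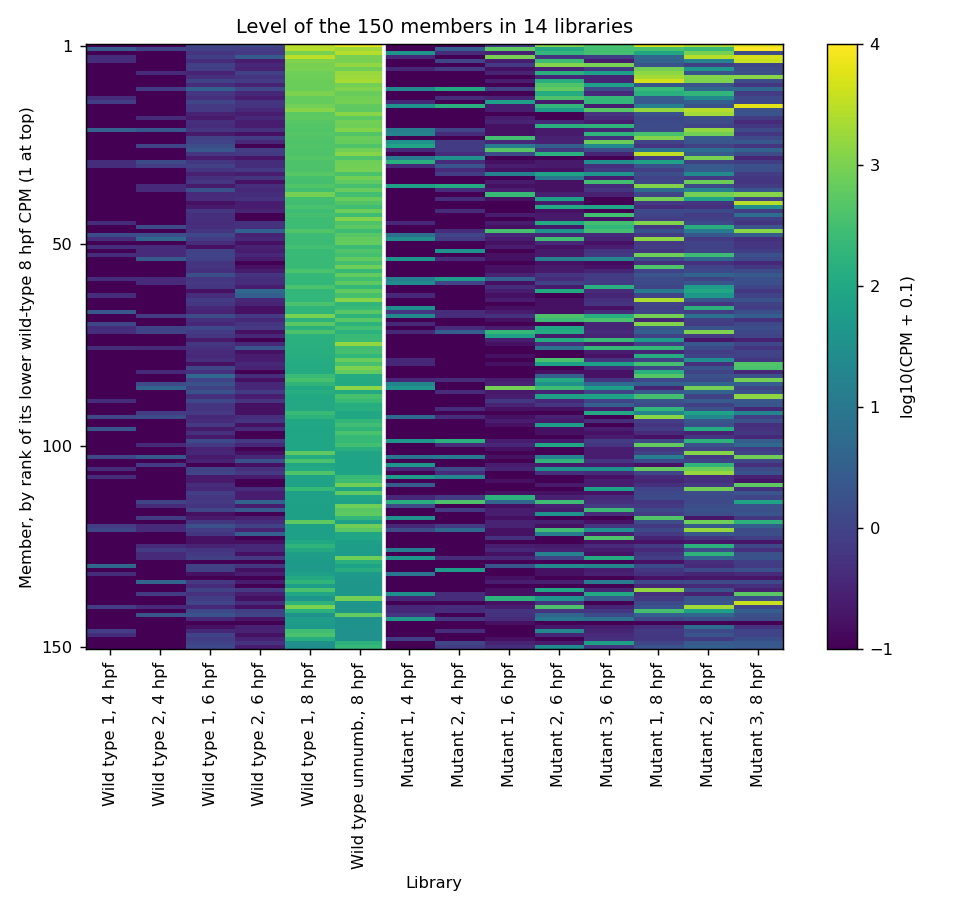
Levels of the 150 members (rows, ranked by their lower wild-type 8 hpf value) in all 14 libraries (columns, wild type left of the white line), as log10(CPM + 0.1). The wild-type 8 hpf columns are high throughout because they chose the members, while the mutant 8 hpf columns hold high values in only 41, 45 and 21 of the 150 rows.

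In the mutants, which the choice did not use, the members were abundant in some libraries and nearly silent in others. At 8 hpf 41 of 150 members (27.3%) reached 10 CPM in mutant replicate 1, 45 (30.0%) in replicate 2 and 21 (14%) in replicate 3, a mean of 23.8% ± 8.57 (SD, n = 3). In all, 78 members reached that level in at least 1 mutant 8 hpf library, 53 of them in exactly 1, 21 in 2 and 4 in all 3. The remaining 72 stayed below it in every mutant 8 hpf library.

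Levels just under 10 CPM were rare. Of the 450 values that the members had in the 3 mutant 8 hpf libraries, 107 were at 10 CPM or more and 83 of these were at 100 CPM or more. Another 177 lay from 1 to 10 CPM and 166 under 1 CPM, and only 5 members had a value from 5 to 10 CPM. The median member stood at 1.17, 1.93 and 1.19 CPM in replicates 1, 2 and 3. Among members at 10 CPM or more the medians were 481, 233 and 1227 CPM, the last of these in the library with the fewest such members. Counts were seldom absent, since 149 of 150 members had a count in each of these libraries.

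**Figure D2:**
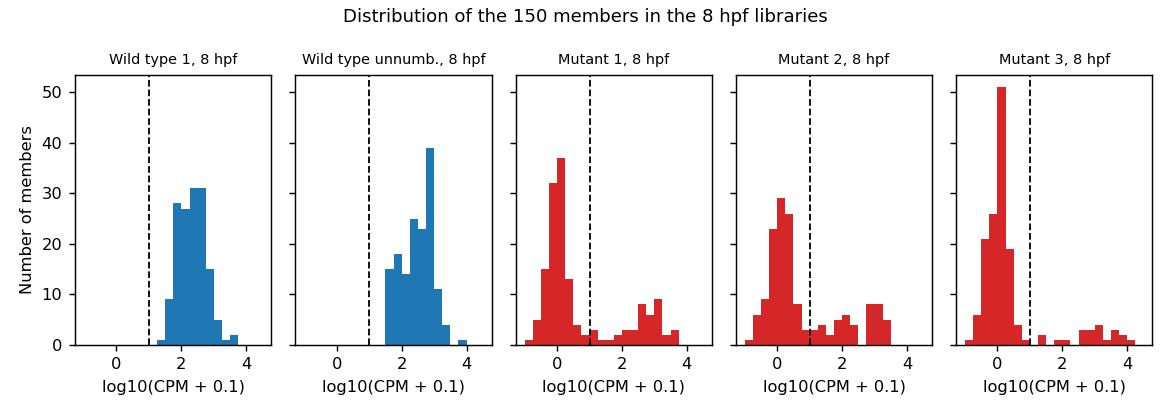
Number of members (y axis) at each level in the 5 libraries of 8 hpf, as log10(CPM + 0.1), with the dashed line at 10 CPM. Wild-type members form 1 hump above the line because of how they were chosen, whereas each mutant library shows a large hump near 1 CPM and a smaller one to the right of the line.

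A few members were high in every mutant 8 hpf library. GSOIDG00003543001, the member with the highest wild-type level (3188 and 7236 CPM), stood at 5561, 2552 and 5686 CPM in mutant replicates 1, 2 and 3. Its earlier mutant values were 0 counts in both 4 hpf libraries and 0.682, 1227 and 376 CPM at 6 hpf. All mutant 8 hpf values lay above all earlier mutant values, and it rose (edgeR adjusted p = 0.0128 for 8 hpf against the mean of 4 and 6 hpf over the 8 mutant libraries). Against 6 hpf alone it did not pass (edgeR adjusted p = 0.232).

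GSOIDG00018159001 gave the clearest separation. It stood at 2021, 1123 and 1289 CPM in the mutant 8 hpf libraries, close to the 798 and 1810 CPM of wild type. At 6 hpf the mutants had 0, 0.259 and 0.230 CPM, and at 4 hpf neither had a count. No early mutant library came near any 8 hpf library, and the gene rose against the mean of 4 and 6 hpf (edgeR adjusted p = 0.0128). It did not pass against 6 hpf alone (edgeR adjusted p = 0.121). Fold changes of members without a count at 4 hpf are not read, because the fitted value then depends on a small added count.

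GSOIDG00011140001 was at 343, 233 and 14774 CPM in mutant replicates 1, 2 and 3 at 8 hpf, the last being 28.7% of all member counts in that library. Mutant values were 0 and 3.03 CPM at 4 hpf and 584, 106 and 315 CPM at 6 hpf, so the 6 and 8 hpf ranges overlapped. The log2 fold change against the mean of 4 and 6 hpf was 8.32 (SE 1.79, edgeR adjusted p = 0.0153), yet the log2 fold change against 6 hpf alone was 3.55 (SE 1.97, edgeR adjusted p = 0.203). The fourth member at 10 CPM or more in all 3 libraries, GSOIDG00001100001, was lower, at 18.4, 80.6 and 19.98 CPM, and had 105 CPM in mutant replicate 3 at 6 hpf. It had no count in the other 4 early mutant libraries and did not pass (edgeR adjusted p = 0.146).

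Other leading members switched between libraries. GSOIDG00016153001 (3234 and 961 CPM in wild type) was at 4.34, 2926 and 4816 CPM in mutant replicates 1, 2 and 3 at 8 hpf and at 924, 0.486 and 0.735 CPM at 6 hpf. Its log2 fold change was 8.62 (SE 2.21, edgeR adjusted p = 0.0273), although 1 of 3 mutant libraries was low at 8 hpf and 1 of 3 high at 6 hpf. The mutant 4 hpf libraries held 1 and 0 counts of it. Against 6 hpf alone the log2 fold change was 2.01 (SE 2.26, edgeR adjusted p = 0.501). GSOIDG00002439001 (1087 and 941 CPM in wild type) was at 3.89, 15.4 and 3872 CPM, nearly all of its mutant level at 8 hpf coming from replicate 3. Mutant replicate 2 at 6 hpf had 268 CPM, above 2 of those 3 values. The log2 fold change was 8.50 (SE 2.25, edgeR adjusted p = 0.0405) against both early stages and 4.30 (SE 2.44, edgeR adjusted p = 0.228) against 6 hpf alone. GSOIDG00000073001 had 97.7, 963 and 1.28 CPM at 8 hpf after 0.205, 206 and 322 CPM at 6 hpf and did not pass, its log2 fold change being 2.66 (SE 2.34, edgeR adjusted p = 0.419).

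**Figure D3:**
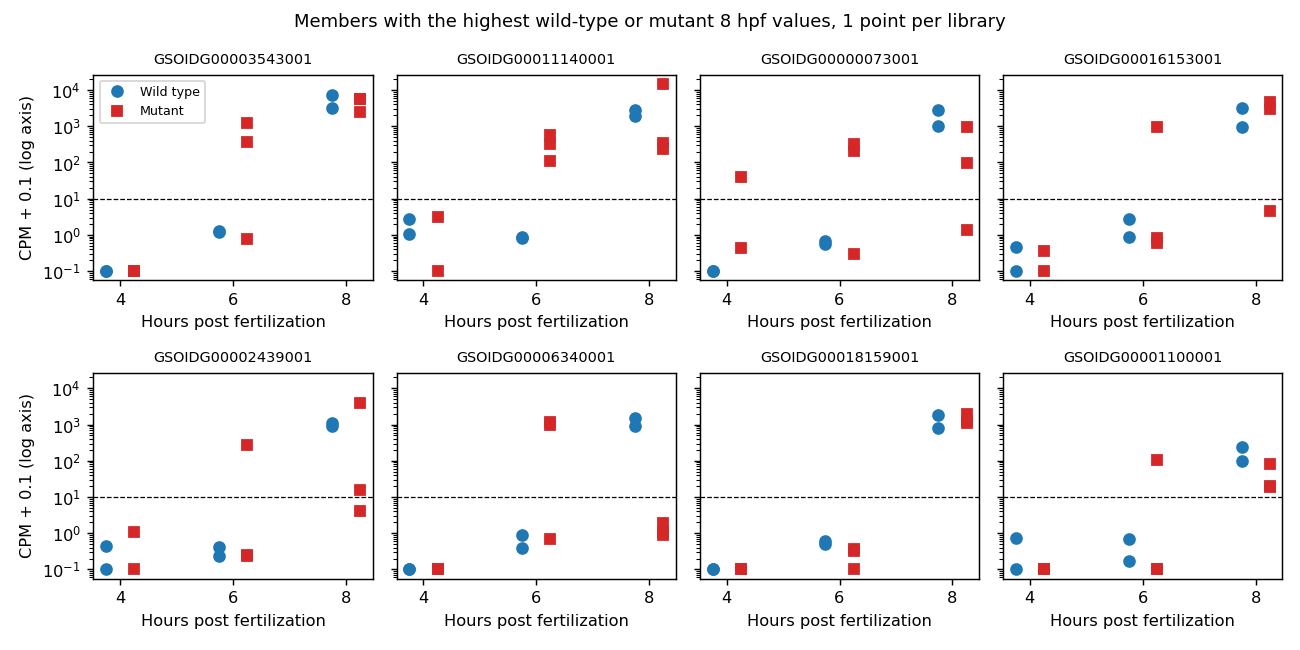
CPM + 0.1 (log axis) against hours post fertilization for 8 members, 1 point per library, wild type as blue circles and mutants as red squares, with the dashed line at 10 CPM. GSOIDG00018159001 is high in all 3 mutant 8 hpf libraries and in no earlier one, while GSOIDG00006340001 is high in 2 mutant libraries at 6 hpf and near 1 CPM in all 3 at 8 hpf.

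Members with high wild-type levels and almost nothing in the mutant 8 hpf libraries formed the other end. GSOIDG00006340001 (939 and 1550 CPM in wild type) had 1.79, 0.773 and 1.00 CPM in the mutants at 8 hpf, but 1169 and 990 CPM in replicates 2 and 3 at 6 hpf and 0.614 CPM in replicate 1. On the log2 scale the mutants differed from wild type at 8 hpf by -10.90 (SE 2.22), which missed the threshold (edgeR adjusted p = 0.166). The member was chosen for high values in those same wild-type libraries, so nothing is read from this difference.

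Altogether 22 members stayed under 1 CPM in all 3 mutant 8 hpf libraries. The median over all identifiers was also under 1 CPM in each, at 0.467, 0.869 and 0.639 CPM in replicates 1, 2 and 3. Low values were thus common, and nothing is read from the count of 22. Among the 22, those with the highest wild-type levels were GSOIDG00016546001 (445 and 420 CPM), GSOIDG00014790001 (350 and 853), GSOIDG00004374001 (278 and 1113) and GSOIDG00015254001 (260 and 667). Mutant 8 hpf values for these 4 lay between 0.456 and 0.966 CPM, or 5 to 12 counts. That they did not overlap with wild type followed from the choice. These 4 were picked under 1 CPM in the mutants, and members had about 31.5 CPM or more in wild type. GSOIDG00016546001 reached 84.4 CPM in mutant replicate 1 at 4 hpf and 24.4 CPM in replicate 3 at 6 hpf, whereas GSOIDG00004374001 and GSOIDG00015254001 never exceeded 0.259 CPM in an early mutant library.

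Compared with wild type at 8 hpf, 89 of 150 members were lower in every mutant library than in both wild-type libraries. Over all identifiers 6.18% were, but the members were chosen for high values in those same wild-type libraries, so nothing is read from the difference. No member passed (edgeR, 0% of all 8704 identifiers tested in either direction), 73 had an unadjusted p under 0.05 with lower values in mutants, and limma-voom also called 0. Of all 8704 identifiers, 2611 had an unadjusted p under 0.05 by edgeR in either direction. DESeq2 called 81 of the 96 members it tested, all lower, where it called 33.9% of all identifiers lower. With the unnumbered library left out, 60 members and 18.1% of all identifiers were called lower by edgeR, in a fit that assumes the lone wild-type library to vary like the mutants. The median log2 fold change was -6.06 over the members and -0.02 over all identifiers tested.

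The share of members at 10 CPM was set beside 2 groups of identifiers under the same early wild-type ceiling. Of 1066 that reached 10 CPM in just 1 wild-type 8 hpf library, 7.69%, 12.2% and 3.56% were at 10 CPM or more in mutant replicates 1, 2 and 3 at 8 hpf. Of 6561 that did so in neither, 2.48%, 3.69% and 0.975% were. The members' 27.3%, 30.0% and 14% were above both in each library, and above the 10.0%, 13.8% and 4.45% of all identifiers. No test of these shares was made, since identifiers of one library are not replicates.

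Identifiers that reached the lowest member level in wild type at 8 hpf but were not confined to that stage were present more often. There were 987 at 31.5 CPM or more in both wild-type 8 hpf libraries with at least 5 CPM in an earlier one. Their medians were 261 CPM in wild-type replicate 1 and 353 CPM in the unnumbered library, above the members' 212 and 335 CPM. In mutant replicates 1, 2 and 3 at 8 hpf, 42.7%, 48.2% and 22.6% of the 987 reached 10 CPM. The order of the 3 libraries was the same for members and for this group. Within the members, ranks 1 to 50 gave 38.0%, 44.0% and 20%, ranks 51 to 100 gave 34.0%, 24.0% and 10.0%, and ranks 101 to 150 gave 10.0%, 22.0% and 12.0%.

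**Figure D4:**
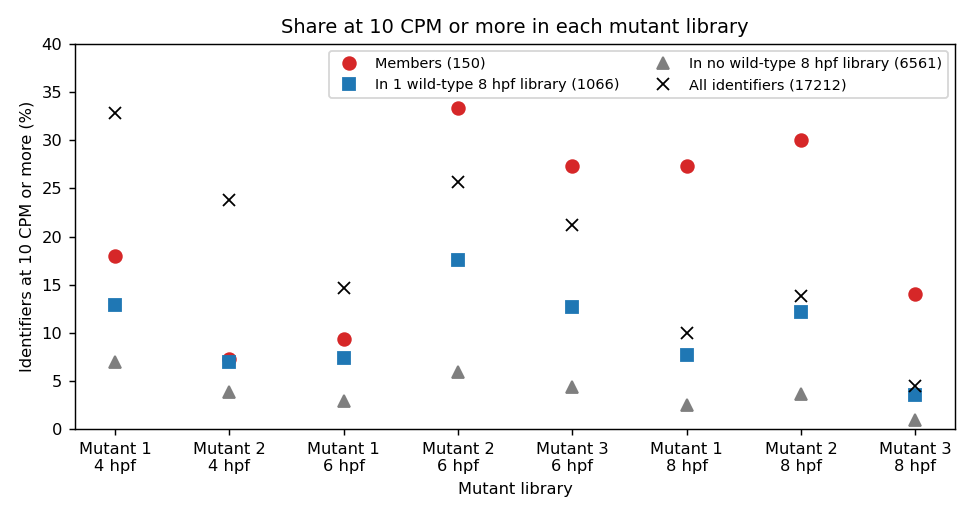
Share of identifiers at 10 CPM or more (y axis, %) in each of the 8 mutant libraries, for the members, for identifiers under the same early ceiling that reached 10 CPM in 1 or in no wild-type 8 hpf library, and for all identifiers. The members lie above all identifiers in every 8 hpf library and below them in both 4 hpf libraries.

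The mutant 8 hpf libraries shared part of their abundant members. Of the 41 members at 10 CPM in replicate 1, 16 (39.0%) were also at that level in replicate 2, where 30.0% of all members were. Replicates 1 and 3 shared 8 members (19.5% of 41 and 38.1% of 21), and replicates 2 and 3 shared 9 (20% of 45 and 42.9% of 21). By comparison, 14% of all members reached 10 CPM in replicate 3. When the wild-type rule was applied to pairs of mutant 8 hpf libraries, with all 5 earlier mutant libraries under 5 CPM, it returned 42, 15 and 27 identifiers. The mutant library left out held 14.3%, 40% and 22.2% of them at 10 CPM or more. By construction these were the same 6 identifiers each time, those that met the rule in all 3 mutant libraries. The recurrence is therefore not a result. Wild-type replicate 1 held 42.9%, 53.3% and 55.6% of the same lists and the unnumbered library 31.0%, 40% and 33.3%. These wild-type libraries also held more of all identifiers at 10 CPM, 24.6% and 15.3%. Mutant replicates 1, 2 and 3 held 10.0%, 13.8% and 4.45%, so nothing is read from the difference between genotypes.

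The full pattern was rare in the mutants over all identifiers, and met by a larger share of the members. It was first set as 10 CPM in at least 2 mutant 8 hpf libraries and under 5 CPM in all 5 earlier ones. Then 72 of all 17212 identifiers qualified, and 5 of the 150 members, 6.94% of that list and 3.33% of the members. With all 3 libraries required, 6 of the 17212 identifiers qualified and 1 was a member, GSOIDG00018159001 by the values given above.

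Some members were on in mutants before 8 hpf, near the share of all identifiers at 6 hpf and below it at 4 hpf. At 6 hpf 14, 50 and 41 members (9.33%, 33.3% and 27.3%) were at 10 CPM or more in replicates 1, 2 and 3, where all identifiers gave 14.6%, 25.7% and 21.2%. The mutant 4 hpf libraries had 27 (18.0%) and 11 (7.33%), against 32.8% and 23.8% of all identifiers. Under the same ceiling, identifiers on in 1 wild-type 8 hpf library gave 7.41%, 17.5% and 12.7% in the 6 hpf mutants and 12.9% and 6.94% in those of 4 hpf. Of the 150 members, 54 reached 10 CPM both in an early and in an 8 hpf mutant library, 34 in early mutant libraries only, 24 in 8 hpf mutant libraries only and 38 in no mutant library. Wild-type libraries could not show such early values, because the choice required them to be under 5 CPM.

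GSOIDG00012821001 (110 and 1347 CPM in wild type at 8 hpf) had the fourth highest early mutant value among the members, after 3 described above. Mutant values were 41.1 and 0 CPM at 4 hpf, then 902, 278 and 61.1 CPM at 6 hpf and 0.233, 917 and 1.00 CPM at 8 hpf. All 3 mutant libraries of 6 hpf were above 10 CPM and only 1 of 3 was at 8 hpf (log2 fold change against the mean of 4 and 6 hpf 1.23, SE 2.27, edgeR adjusted p = 0.718).

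The numbers of members present overlapped between 6 and 8 hpf, whereas the summed levels did not. The members took 0.119% and 0.118% of all counts in the mutant 4 hpf libraries, 0.455%, 0.985% and 0.845% in those of 6 hpf, and 3.92%, 3.18% and 5.15% in those of 8 hpf. The stages did not overlap, and the mean at 8 hpf was 5.36 times that at 6 hpf and 34.4 times that at 4 hpf. Both wild-type 8 hpf libraries, at 5.26% and 7.88%, were above all 3 mutants, an order that the choice of members favours and from which nothing is read. Identifiers on in 1 wild-type 8 hpf library also took a larger share later in mutants, 2.07 times that of 6 hpf and 8.93 times that of 4 hpf, and those on in neither 1.64 and 3.89 times. The 10 highest members made up 65.0%, 61.1% and 89.7% of the summed level in mutant replicates 1, 2 and 3, against 31.4% and 29.6% in wild type. Without their own top 10 the mutant sums were 13713, 12397 and 5313 CPM at 8 hpf and 196, 4261 and 3785 CPM at 6 hpf, still without overlap.

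**Figure D5:**
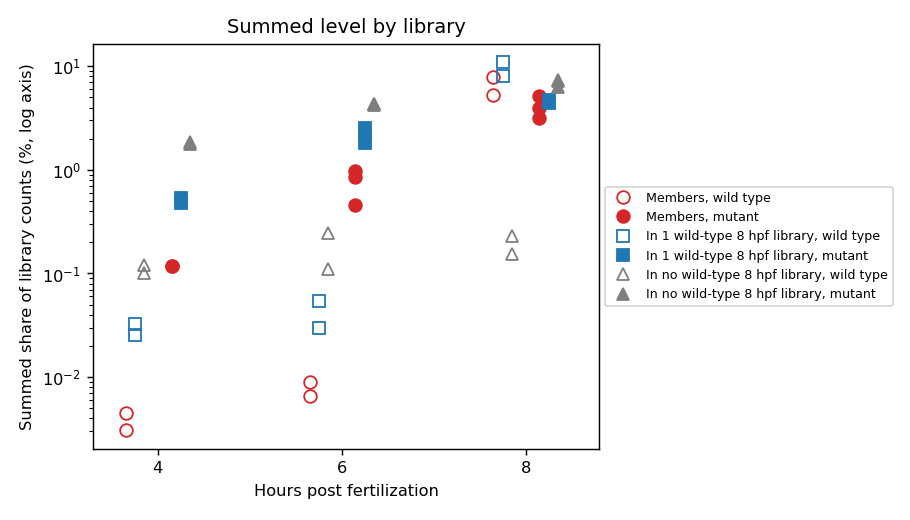
Summed share of library counts (y axis, %, log axis) against hours post fertilization, 1 point per library, open for wild type and filled for mutants, for the members and for identifiers under the same early ceiling that reached 10 CPM in 1 or in no wild-type 8 hpf library. The members climb most between 4 and 8 hpf in mutants, from about 0.12% to between 3.18% and 5.15%.

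Gene by gene, 129 members passed the low-count filter in the mutants and were tested between stages, and 47 of them rose at 8 hpf against the mean of 4 and 6 hpf, while 0 fell (edgeR's quasi-likelihood test, adjusted p under 0.05). Over all 10873 identifiers tested 13.7% rose and 0.469% fell. Of the members tested 36.4% rose, as did 37.7% of the 2186 tested identifiers on in neither wild-type 8 hpf library and 27.3% of 620 on in 1. These shares cover only identifiers that passed the filter in the same mutant libraries. Over the whole lists 47 of 150 members rose, against 825 of 6561 on in neither library and 169 of 1066 on in 1. The comparison therefore depended on the filter, and nothing is read from it. Among the 987 identifiers at the members' wild-type 8 hpf floor or above but not confined to that stage, 959 were tested and 4.38% rose. The filter, which requires a minimum level in several libraries, left out 21 members. Of these 18 stayed below 10 CPM in every mutant library, and the other 3 reached it, GSOIDG00007247001 with 31008 counts in replicate 3 at 8 hpf among them (named after its value was seen). By unadjusted p 71 members were higher and 0 lower, where 3546 of all 10873 identifiers were under 0.05 in either direction. limma-voom called 2 of 129 members higher and 0 lower, and 0.0828% and 0.322% of all identifiers. DESeq2 called 44 of 80 members higher and 0 lower, and 25.3% and 6.22% of all identifiers.

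These calls include 2 kinds of gene. Of the 47, 35 reached 10 CPM in at least 1 mutant 8 hpf library, 3 of them in all 3. The other 12 stayed below 10 CPM throughout and passed because a few counts at 8 hpf followed almost none. GSOIDG00015265001 is one of them, with 14, 15 and 22 counts at 8 hpf (1.09, 1.45 and 2.01 CPM), 1 count in each 6 hpf library and 0 at 4 hpf (edgeR adjusted p = 0.0128). GSOIDG00006166001 (1.17, 1.26 and 0.639 CPM at 8 hpf) and GSOIDG00017602001 (0.934, 1.16 and 1.28 CPM) were likewise called at the same adjusted p of 0.0128 (edgeR), although wild type had 283 and 758 CPM of the first and 379 and 224 CPM of the second. GSOIDG00012304001 was called through 1 library, with 1.25, 2.13 and 4055 CPM (edgeR adjusted p = 0.0128). The number of calls fell to 14 and 22 without mutant 6 hpf replicates 2 and 3, and to 28 and 24 without mutant 8 hpf replicates 1 and 3. The share of all identifiers called higher fell too, from 13.7% to 5.42% and 8.92%, and to 8.92% and 4.85%. Leaving out either 4 hpf mutant library left 1 library in its group, and those calls are not read. The number was 0, with 0% of all identifiers, without mutant replicate 1 at 6 hpf and replicate 3 at 8 hpf together, the sparsest of their stages.

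The median log2 fold change at 8 hpf against the mean of 4 and 6 hpf was 4.48 over the 129 members and -0.33 over all identifiers tested. It was 2.15 over the 620 tested identifiers on in 1 wild-type 8 hpf library and 2.64 over the 2186 on in neither. Part of the gap was thus shared by other identifiers under the same early wild-type ceiling. In 56 of the 129 members 1 or more stages had no count. Such identifiers were then set to the ratio of group mean CPM, with a floor of 3 counts over the group. The medians became 3.34 over the members and -0.53 over all identifiers. With RLE factors the fitted medians were 5.77 over the members and 1.12 over all identifiers, and with upper-quartile factors 8.05 and 3.03. The gap was 4.65 to 5.02 on the log2 scale. A scaling factor acts on every identifier of its library and so moves both medians alike, which makes this no test of the gap. For comparison, the 148 tested genes of a list on only at 4 hpf in wild type, chosen by the mirrored rule, had a median of -5.78, and 29 of those on only at 6 hpf a median of -0.38. Of 150 genes on only at 4 hpf, 95.3% and 86.0% were at 10 CPM or more in the mutant 4 hpf libraries, and of 33 on only at 6 hpf 18.2%, 48.5% and 36.4% were in those of 6 hpf.

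Each earlier stage was also compared alone. Against 4 hpf 15 of 129 members rose and 0 fell (edgeR, with 70 higher and 1 lower by unadjusted p). Over all identifiers 5.57% rose and 0.441% fell, and 3249 of 10873 had an unadjusted p under 0.05 in either direction. DESeq2 called 52 of 78 members higher and 0 lower, and 23.9% and 4.28% of all identifiers. limma-voom called 7 members higher and 0 lower, and 0.193% and 0.175% of all identifiers. The 15 were all among the 47 above, 9 of them below 10 CPM in every mutant 8 hpf library. With any 1 mutant library of 6 or 8 hpf left out this count was 0, and 0% of all identifiers rose. Against 6 hpf 0 members passed (edgeR; 0% of all identifiers), and 40 of 129 were higher and 6 lower by unadjusted p. Of all 10873 identifiers tested, 3933 had an unadjusted p under 0.05 in either direction, so nothing is read from these counts. limma-voom called 1 member higher and 0 lower, and 0.046% and 0.239% of all identifiers. DESeq2 called 9 of 72 members higher and 4 lower, and 4.38% and 11.5% of all identifiers. The median log2 fold change against 6 hpf was 2.31 over the members and -0.41 over all identifiers. It was 1.66 over tested identifiers on in 1 wild-type 8 hpf library and 2.17 over those on in neither.

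Non-overlap was also counted, over whole lists and with no low-count filter. In 47 of 150 members (31.3%) every mutant 8 hpf library lay above every earlier mutant library, against 21.6% of all identifiers, 34.3% of those on in 1 wild-type 8 hpf library and 38.3% of those on in neither. Of these 47 members 21 reached 10 CPM in a mutant 8 hpf library and 26 did not. Against 6 hpf alone 66 members (44.0%) lay higher without overlap, where 35.9% of all identifiers did.

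Some members sat side by side in the identifier order, in 9 pairs of consecutive numbers, against 5 pairs among the 150 genes on only at 4 hpf. In 5 of the 9 pairs both genes reached 10 CPM in the same mutant library, and over all pairs this happened in 12 of the 25 cases in which either did. The 2 pairs described next held 4 of these 12 cases each. No share for pairs that are not adjacent is given beside it, so nothing is read from it. The pair GSOIDG00009247001 and GSOIDG00009248001, chosen after their values were seen, moved together. They were at 336 and 340 CPM in mutant replicate 1 at 8 hpf, at 0.386 and 0.870 CPM in replicate 2 and at 434 and 1434 CPM in replicate 3. In wild type they were at 121 and 109 CPM in replicate 1 and at 346 and 346 CPM in the unnumbered library. GSOIDG00004925001 and GSOIDG00004926001, also chosen after their values were seen, were at 6131 and 830 CPM in mutant replicate 3, 1.74 and 0.580 CPM in replicate 2, and 846 and 121 CPM in wild-type replicate 1. Whether identifier order follows the chromosome was not tested, and of the 269 other immediate neighbours of members 11.9% were at 10 CPM in both wild-type 8 hpf libraries against 8.45% of all identifiers.

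Levels also varied among members from library to library. Across the 150 members the Spearman correlation of CPM was 0.42 between the wild-type 8 hpf libraries, 0.35, 0.27 and 0.30 between pairs of mutant 8 hpf libraries and 0.13 to 0.48 between genotypes. These describe 150 genes that share their libraries and carry no test. Counts that were not whole numbers, which arise where reads are divided among similar transcripts, occurred in 27 members (18.0%), close to the 17.9% of all identifiers.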

How the data were processed

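Polyadenylated RNA from pools of whole animals was sequenced, per the labels' protocols, and the authors deposited estimated counts per identifier in 1 table per stage, neither scaled nor pooled. The tools named are kallisto 0.46.0 and DESeq2, per the submitters' processing notes, with index and filters not given in the sources used here. Estimated counts were rounded for tests. CPM used each column's total. No library was a repeat of another of its stage (chi-square per degree of freedom at least 107).

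Stage contrasts were fitted on the 8 mutant libraries, and genotype at 8 hpf on 5, with edgeR 4.0.16 in R 4.3.3 (filterByExpr, TMM factors, quasi-likelihood F test, two-sided, Benjamini-Hochberg adjustment over all identifiers tested, threshold 0.05). Standard errors came from the fitted weights and are not given where a group had no count. Alternatives used limma-voom (limma 3.58.1), DESeq2 1.42.0, RLE or upper-quartile factors, other filters, membership rules and depths, a replicate block, and each library left out. Simulated counts with known changes were used to test the edgeR fit. Members and lists were chosen with earlier results of these data known. Named members were the 6 highest in wild type, those at each threshold, the 6 with the smallest p, the 4 with the highest minimum over the mutant 8 hpf libraries, the 4 with the highest maximum over the earlier mutant libraries, and, of those under 1 CPM in all 3 mutant 8 hpf libraries, the 4 highest in wild type. Reads carry no molecular identifiers, so floors cover counting error only. P-values measure the spread between these libraries, which may be technical. Summaries used pandas 2.3.3 and plots matplotlib 3.10.9, in Python 3.11.15.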

Additional observations from a re-analysis of the deposited data

How the results depend on the processing

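The share of members at 10 CPM or more in the mutant 8 hpf libraries was 23.8% on average. It was 25.1% at 5 CPM and 22.0% at 20 CPM. With 1 library left out it ran from 20.7% to 28.7%, and after thinning to 2803712 counts it was 23.8%. Leaving out 1 of 3 libraries cannot move their mean by 1 SD, and thinning keeps the expected CPM. Neither of these is therefore a test of the share. Counts of calls depended on the setting, and the cause was not tested. For 8 hpf against the mean of 4 and 6 hpf, 47 members rose (13.7% of all identifiers). The number was 88 with upper-quartile factors (31.0%), 85 without a low-count filter (34.2%) and 2 with limma-voom (0.0828%). It was 0 (0%) without the sparsest 6 and 8 hpf libraries, an alternative added after seeing the data. With 1 mutant library of 6 or 8 hpf left out it was 14 to 34 (4.85% to 10.4% of all identifiers). Against 4 hpf the 15 calls became 52 with DESeq2 (23.9% of all identifiers) and 7 with limma-voom (0.193%). They became 0 (0% of all identifiers) without a filter, with a mean of at least 5 CPM and in 1 fit of all 14 libraries. The same held without the 2 sparsest libraries and with any 1 mutant library of 6 or 8 hpf left out. Against 6 hpf the 0 calls became 26 with upper-quartile factors (14.5% of all identifiers), 9 with DESeq2 (4.38%) and 1 with limma-voom (0.046%), and stayed 0 with 1 library left out. Between genotypes at 8 hpf the 0 lower calls became 3 with upper-quartile factors (0.241% of all identifiers), 81 with DESeq2 (33.9%) and 0 to 60 with 1 library left out. With the replicate number as a block, 18 members (7.75% of all identifiers) rose against the mean of 4 and 6 hpf, 0 against 4 hpf and 0 against 6 hpf. The block is not a pairing by design, since same-numbered mutant libraries did not deviate together (correlations -0.017 to 0.018), and no block could be fitted between genotypes. The members' median log2 fold change against the mean of 4 and 6 hpf stayed above that of all identifiers by 1.65 to 7.69. Directions that reversed were those of GSOIDG00006340001 (0.29 with RLE and 2.86 with upper-quartile factors, fitted values that depend on a small added count and whose sign is not read, since neither mutant 4 hpf library has a count), GSOIDG00010986001 (-0.10 without mutant 4 hpf replicate 1, -0.10 to 2.57 with 1 library left out) and GSOIDG00012821001 (-1.25 with limma-voom, -6.26 without mutant 8 hpf replicate 2, -6.26 to 5.78 with 1 library left out), none of which passed.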
